A study of Arabidopsis thaliana with 24 samples.

Results

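The comparison described here set agb1 seedlings against wild type (WT) seedlings after 3 h in NAE 18:3, across all expressed loci. Its members were the 3 agb1 libraries and the 3 WT libraries given NAE 18:3 for 3 h, 6 of the 24 libraries of the study. Of the 32833 loci in the 3 h table, 20672 passed a filter on low counts and were tested. Every group was made of whole 4-day-old seedlings of Arabidopsis thaliana, Col-0 or agb1, raised in shaken liquid medium with 1% sucrose. Each genotype received either the solvent, 0.2% DMSO, or 40 µM NAE 18:3, and seedlings were frozen after 1 h or 3 h. This gave 8 groups of 3 libraries. The labels do not say whether the NAE medium also held DMSO. The labels give no name for the agb1 allele and do not say how many lines it stands for. Each sample was a pool of seedlings. Replicates carry numbers, but nothing says that they were separate cultures, so the p-values measure the spread between these samples.

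NAE 18:3 is N-linolenoylethanolamine, a lipid of the N-acylethanolamine family. Plant cells hydrolyse such lipids with fatty acid amide hydrolase (FAAH), and lipoxygenases oxidise the polyunsaturated ones to oxylipins. AGB1 is the only beta subunit gene of the plant's heterotrimeric G protein, and its product works as a dimer with a gamma subunit (AGG1, AGG2 or AGG3). The dimer pairs with the alpha subunit GPA1, whose GTP hydrolysis is accelerated by RGS1, and agb1 mutants are known for altered defence, abscisic acid responses, cell division and stomatal density.

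AGB1 transcript was lower in the libraries labelled agb1, but it was not absent. AGB1 (AT4G34460, chromosome 4, 16477031 to 16479620, minus strand, TAIR10.1) stood at 93.8, 112 and 105 CPM in the WT NAE libraries and at 32.5, 32.0 and 35.4 CPM in the agb1 NAE libraries. CPM is the count of a locus relative to the scaled library size, and it is not corrected for gene length. The 2 groups did not overlap, and the log2 fold change of agb1 over WT was -1.63 (SE 0.12, edgeR adjusted p = 1.44e-06). The difference was -0.88 under DMSO at 3 h and -0.36 under NAE at 1 h. The WT NAE libraries held 19954891 to 25799623 counts and the agb1 NAE libraries 35982747 to 39973593, so the agb1 levels carry less counting error. Ribosomal RNA took 0.0712% to 0.0933% of the WT counts and 0.126% to 0.257% of the agb1 counts, ranges that did not overlap. Leaving ribosomal RNA and organelle loci out of the fit was among the alternative analyses given below. Whether the amount of ribosomal RNA itself plays a part in the results was not tested. WT NAE replicate 3 differed more from replicates 1 and 2 (chi-square per degree of freedom 22.8 and 22.4) than these did from each other (8.56). Between agb1 NAE replicates the values were 8.86 to 14.9.

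The WT libraries of 3 h stood apart from the WT libraries of 1 h also without NAE, and this touches the loci with the largest differences. Of the 867 loci that were at least 2-fold lower in agb1, 380 (43.8%) had WT levels under DMSO at least 2-fold apart between 3 h and 1 h, against 17.7% of all tested loci. The agb1 levels of the same 867 loci were that far apart at 116 (13.4%), against 10.1% of all tested loci. Of the 419 loci at least 2-fold higher in agb1, the WT levels under DMSO were that far apart at 138 (32.9%) and the agb1 levels at 71 (16.9%). The labels give no reason for this, and time and any other difference between the 2 sets of seedlings cannot be told apart. Replicate 2 of WT under DMSO at 1 h held 5.29% ribosomal RNA counts, against 0.0314% and 0.0765% in replicates 1 and 3. It also held 1.18% plastid and 1.74% mitochondrial counts and the lowest total, 18001981 counts. The part of this library in these shares and in the choice of loci below was not tested. Among the 17003 loci whose WT level under DMSO differed by less than 2-fold between times, 3582 (21.1%) were called under NAE at 3 h, 281 of them at least 2-fold higher and 487 at least 2-fold lower.

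At 3 h in NAE 18:3, agb1 differed from WT at 4743 of 20672 loci, 22.9% of those tested (edgeR's quasi-likelihood test, Benjamini-Hochberg adjusted p under 0.05, the rule meant by "called" throughout). Transcripts were lower in agb1 at 2833 loci (13.7%) and higher at 1910 (9.24%). At an unadjusted p under 0.05 there were 7482 loci (36.2%). Differences of at least 2-fold were called at 867 loci in the lower direction (4.19%) and at 419 in the higher direction (2.03%). The median log2 fold change over all tested loci was -0.01, the median of its size was 0.288 and the median SE was 0.165. The split between directions depended on the scaling, since 40.3% of the calls were higher with trimmed-mean scaling and 53.7% with upper-quartile scaling, which moved the median of all loci by 0.07. The count of calls fell to 2875 without agb1 NAE replicate 1, to 2812 without agb1 NAE replicate 2 and to 3106 without WT NAE replicate 2. The higher calls fell to 1038, 1061 and 1219 without agb1 NAE replicates 1, 2 and 3 and to 1186 without WT NAE replicate 2, and the lower calls to 1837 and 1751 without agb1 NAE replicates 1 and 2. Calls were less frequent at low levels, at 11.5% of loci with a mean under 1 CPM and 26.1% of loci over 50 CPM.

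The largest decrease in agb1 among called loci with a mean of at least 5 CPM and no overlap between the groups was at AT5G23700, annotated as a coiled-coil protein (chromosome 5, 7992776 to 7997509, plus strand). Its level was 25.2, 29.1 and 25.7 CPM in WT and 0.173, 0.158 and 0.335 CPM in agb1, a log2 fold change of -6.87 (SE 0.30, edgeR adjusted p = 2.80e-08). All 3 agb1 libraries lay far below all 3 WT libraries, a 117-fold difference. SDH1-2 (AT2G18450, chromosome 2, 7997344 to 8000825, minus strand) encodes a second copy of the flavoprotein subunit of mitochondrial succinate dehydrogenase. Its level was 86.1, 102 and 78.9 CPM in WT and 2.48, 2.40 and 2.45 CPM in agb1, a 36.4-fold difference (log2 fold change -5.19, SE 0.17, edgeR adjusted p = 1.02e-09). SHOC1 (AT5G52290, chromosome 5, 21230224 to 21236554, minus strand), known for its role in meiotic crossover formation, was at 10.9, 11.2 and 8.93 CPM in WT and 0.490, 0.290 and 0.412 CPM in agb1 (log2 fold change -4.69, SE 0.21, edgeR adjusted p = 2.94e-08). SHOC1 overlaps AT5G52280 on the opposite strand, whose log2 fold change was 0.20 and not called. AT5G23700 likewise overlaps AT5G23710, which was not among the tested loci, and the strand setting of the counting is not given in the sources used here.

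The other 7 of the 10 largest decreases ran from -5.37 to -3.52 on the log2 scale. They were AT2G34580 (-5.37), AT1G33500 (-4.28), the glycine-rich protein gene AT2G05510 (-3.79), the HCO3- transporter family member AT4G32510 (-3.67), AT1G69710 of the RCC1 family (-3.66), AT3G57440 (-3.65) and AT3G28270 of the DUF677 family (-3.52). AT3G28270 stood at 76.4, 90.7 and 62.0 CPM in WT and at 6.86, 5.57 and 7.57 CPM in agb1 (SE 0.28, edgeR adjusted p = 4.14e-06).

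For SDH1-2 and AT5G23700 the WT level at 3 h was far above that at 1 h. With all 24 libraries scaled together, SDH1-2 was at 3.24, 3.96 and 4.12 CPM in the WT NAE libraries of 1 h and at 94.1, 110.2 and 87.3 CPM in those of 3 h. In agb1 it was at 6.32, 6.24 and 5.22 CPM at 1 h and at 2.81, 2.72 and 2.79 CPM at 3 h. The WT libraries of 3 h under DMSO, at 86.6, 77.6 and 101 CPM, lay in the same range, so the high level in WT was present without NAE. AT5G23700 had WT at 0.430, 0.523 and 0.547 CPM at 1 h in NAE and at 27.5, 31.3 and 28.4 CPM at 3 h, and its difference at 1 h was not called (0.44).

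The largest increase in agb1 among loci chosen the same way was at FSD1 (AT4G25100, chromosome 4, 12884300 to 12887011, minus strand), which encodes an iron superoxide dismutase. FSD1 stood at 9.05, 7.29 and 2.83 CPM in WT and at 513, 497 and 481 CPM in agb1, a log2 fold change of 6.29 (SE 0.31, edgeR adjusted p = 9.09e-08). The groups were 78.5-fold apart in the fit, and replicate 3 was the lowest of the WT libraries. CSD2, the plastid copper/zinc superoxide dismutase, went the other way, from 1432, 1613 and 1591 CPM in WT to 592, 547 and 529 CPM in agb1 (log2 fold change -1.47, SE 0.10, edgeR adjusted p = 1.04e-06). CSD1, the cytosolic copper/zinc enzyme, was lower by a smaller amount (-0.41). FSD1 and the copper/zinc enzymes are known to be used in place of each other according to copper supply. At 1 h the order of the genotypes was reversed for FSD1, with 237, 210.1 and 131 CPM in WT and 63.1, 75.3 and 80.9 CPM in agb1 under NAE.

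MRN1 (AT5G42600), which encodes marneral synthase of triterpene metabolism, was at 0.476, 0.355 and 0.258 CPM in WT and 9.57, 14.4 and 12.4 CPM in agb1 (log2 fold change 5.06, SE 0.64, edgeR adjusted p = 0.000178). Its SE was the widest of the 20 loci named for size. The other 8 of the 10 largest increases lay between 1.93 and 2.51. They were the drought-repressed gene DR4 (2.51), the fatty acid desaturase family gene AT1G06360 (2.46), the metal transporter gene ZIP2 (2.43), DWA2 (2.29), the lipid recognition domain gene AT5G23840 (2.28), the acyl-carrier-protein desaturase family gene AT3G02620 (2.15), the MATE efflux family gene AT4G38380 (2.04) and the WD40 repeat gene AT5G14530 (1.93). DWA2 overlaps AT1G76270 on the opposite strand, which was higher by 0.46 as well. All 20 loci named for size kept their call and sign in every one of 21 alternative analyses. They were picked from the same libraries as called, large and without overlap, so this follows largely from the choice and is not separate support.

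**Figure D1:**
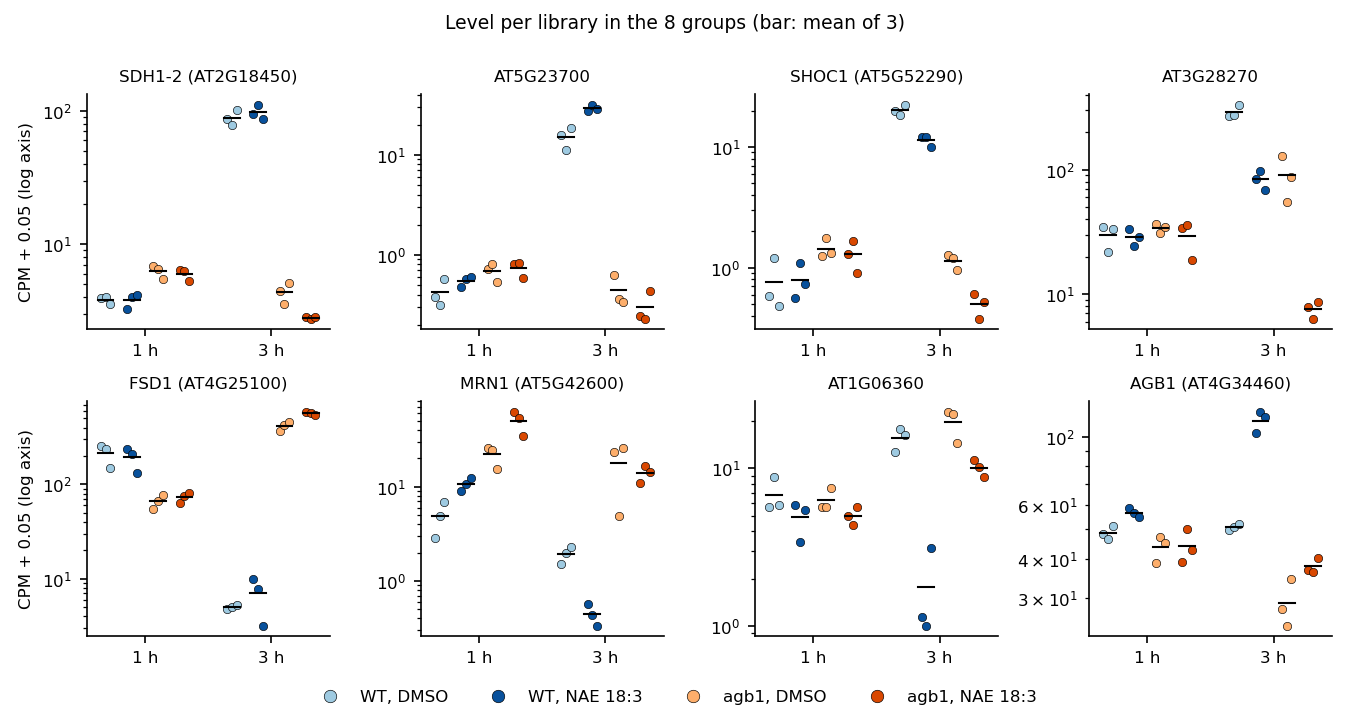
CPM of 8 genes (vertical log axis, after adding 0.05) in each of the 24 libraries, 3 points for each of the 8 groups of genotype, treatment and time on the horizontal axis, all libraries scaled together. SDH1-2, AT5G23700 and SHOC1 are high only in the WT libraries of 3 h under DMSO and NAE, and FSD1 is low only there, while AGB1 is highest in the WT NAE libraries of 3 h, at 103 to 120 CPM.

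The genotype difference under NAE was compared with that under DMSO at 3 h, which uses other libraries. Under DMSO 3921 loci (19%) were called, 2300 lower (11.1%) and 1621 higher (7.84%). Of the 2833 loci lower in agb1 under NAE, 1252 were also lower under DMSO, which is 44.2% of the first list and 54.4% of the second, and 52 were higher. Of the 1910 loci higher under NAE, 577 were higher under DMSO (30.2% and 35.6%), and 31 were lower. The loci at least 2-fold lower under NAE were lower under DMSO at 518 of 867 (59.7%), and those at least 2-fold higher were higher under DMSO at 142 of 419 (33.9%). Across the 20672 loci the log2 fold changes of the 2 comparisons had a Pearson correlation of 0.52, given as a description since loci are not independent. The DMSO calls fell to 2503 without WT DMSO replicate 2, and the higher ones to 856 without agb1 DMSO replicate 3 and to 940, 709 and 1062 without WT DMSO replicates 1, 2 and 3.

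**Figure D2:**
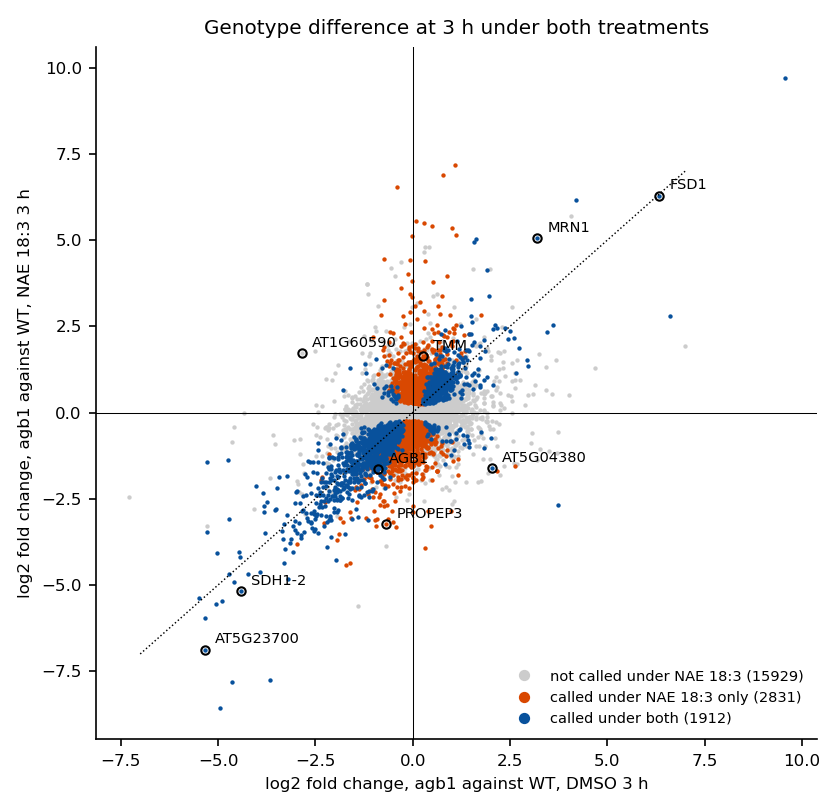
Log2 fold change of agb1 over WT at 3 h for each of the 20672 tested loci, under DMSO (horizontal axis) and under NAE 18:3 (vertical axis), coloured by call. The 1912 loci called under both treatments include 1252 lower under both and 577 higher under both, in the lower left and the upper right of the plot, 2831 were called under NAE only, and 15929 were not called under NAE. The dotted line marks equal values.

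At 1 h in NAE, from other libraries again, 1907 of 21255 loci (8.97%) were called, 1039 lower (4.89%) and 868 higher (4.08%). Among the 20365 loci tested at both times, 329 were lower at both, 11.9% of the 3 h list and 31.7% of the 1 h list, and 112 of the loci lower at 3 h were higher at 1 h. In the higher direction 89 loci were shared (4.68% and 10.3%), and 112 were higher at 3 h and lower at 1 h. The Pearson correlation across loci was 0.13. The 1 h calls fell to 1166 and 1265 without agb1 NAE replicates 2 and 3 of 1 h and to 1071 without WT NAE replicate 2 of 1 h.

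Of the other G protein genes, 3 subunit genes were lower and 1 interactor gene was higher. GPA1, the alpha subunit gene, was lower in agb1, at 274, 275 and 256 CPM in WT and 172, 171 and 189 CPM in agb1 (log2 fold change -0.60, SE 0.11, edgeR adjusted p = 0.00262). The gamma subunit genes AGG1 (-0.55) and AGG2 (-0.57) were lower too, and the AGG1 call was lost without agb1 NAE replicate 2 (edgeR adjusted p = 0.0514). AGG3 (0.28) and RGS1 (-0.10) were not called. NDL3, whose family is known to interact with AGB1, was higher, at 4.55 to 4.86 CPM in WT and 10.5 to 11.6 CPM in agb1 (log2 fold change 1.23, SE 0.15, edgeR adjusted p = 7.96e-05). NDL3 overlaps AT2G19610 and AT2G07245 on the opposite strand. Of the 12 G protein genes 4 were lower and 1 was higher, with a median log2 fold change of -0.13. That is 41.7% called, against 22.9% of all tested loci. The 4 include AGB1, the gene that defines the genotype, so this share is not a result about the other members alone. Under DMSO 1 was lower (11.1% of all tested loci), AGB1 itself.

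Genes of photosynthetic carbon fixation were lower in agb1. Of 20 Calvin cycle genes 16 were called lower and none higher (80% called, against 22.9% of all tested loci and 13.7% in the lower direction), and all 20 values were below 0, with a median log2 fold change of -0.56 against -0.01 over all loci. RBCS1A, a small subunit gene of Rubisco, was at 14767, 18600 and 17412 CPM in WT and at 10857, 10113 and 9815 CPM in agb1, and each WT library was above each agb1 library (log2 fold change -0.72). Small subunit genes RBCS1B, RBCS2B and RBCS3B lie side by side and are near-identical, so reads may be split among them, and they were lower by 0.53 to 0.82. CP12-2, a redox switch that holds GAPDH and phosphoribulokinase in an inactive complex, was at 53.6, 61.2 and 56.5 CPM in WT and 15.6, 13.4 and 13.1 CPM in agb1 (log2 fold change -2.03, SE 0.17, edgeR adjusted p = 3.81e-06). HCEF1, the plastid fructose bisphosphatase, which overlaps AT3G54060 on the opposite strand (-1.29), was at 311, 337 and 289.9 CPM in WT and at 191, 172 and 196 CPM in agb1 (-0.74, SE 0.10, edgeR adjusted p = 0.000285). EMB3119, a ribose phosphate isomerase, was lower by 0.62, and phosphoribulokinase (PRK) by 0.75. Because whole seedlings were sampled, fewer cells of a type and less RNA per cell cannot be told apart here or below. Under DMSO 18 of the 20 genes were lower (11.1% of all tested loci), with a median of -0.74. At 1 h in NAE 1 was lower (4.89% of all tested loci), with a median of -0.16.

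Other plastid genes of the nucleus followed in part. Of 29 genes of the photosystems and electron transport 16 were lower and none higher (median -0.40), a count that fell to 10 without agb1 NAE replicate 2 and to 8 without agb1 NAE replicate 3 or WT NAE replicate 2. PETE2, plastocyanin, was at 1757, 1918 and 1777 CPM in WT and 946, 897 and 931 CPM in agb1 (-0.97, SE 0.11, edgeR adjusted p = 4.57e-05). PSBR of photosystem II (-0.83) and PSAE1 of photosystem I (-0.85) were the next by p, and both overlap loci on the opposite strand that were not called. Of 20 light-harvesting antenna genes 5 were lower and 2 higher, with a median of -0.25. LHCA6 (-1.10), LHCB4.3 (-0.72) and LHCA2 (-0.58) were lower, while LHCB1.1, a gene with near-identical copies, was higher (0.71). Under DMSO 25 of the 29 photosystem genes (median -0.66) and 19 of the 20 antenna genes (median -0.78) were lower. Of all tested loci 11.1% were called lower under DMSO. Among 12 greening regulators and sigma factors 6 were lower and none higher, with a median of -0.56. GLK1, a transcription factor that activates photosynthesis genes, was at 49.3, 53.7 and 54.0 CPM in WT and 32.5, 30.4 and 28.0 CPM in agb1 (-0.79, SE 0.10, edgeR adjusted p = 0.000164). The GATA factor genes GNC (-1.03) and CGA1 (-1.26) and the sigma factor genes SIG1 (-0.69), SIG3 (-0.45) and SIG4 (-0.75) made up the rest. Of 16 chlorophyll synthesis genes 1 was lower, HEMA1 (-0.46), and 2 were without WT NAE replicate 3. The higher antenna count was 1 without agb1 NAE replicate 1 or 2 or any single WT NAE replicate. The shares called were 55.2% (photosystems), 35% (antenna), 50% (greening regulators) and 6.25% (chlorophyll synthesis), against 22.9% of all tested loci.

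Markers of the shoot epidermis and of the stomatal lineage were higher in agb1. Of 7 markers 5 were called higher and none lower (71.4% called, against 9.24% of all tested loci in that direction), with a median of 1.05. TMM, a receptor-like protein that limits stomatal divisions, was at 5.10, 4.44 and 6.40 CPM in WT and 17.2, 19.3 and 13.4 CPM in agb1 (log2 fold change 1.64, SE 0.17, edgeR adjusted p = 3.35e-05). SPCH, the bHLH factor that starts the stomatal lineage, was at 8.91, 8.53 and 8.63 CPM in WT and 17.4, 16.8 and 14.5 CPM in agb1 (0.90, SE 0.18, edgeR adjusted p = 0.00321). EPF2, a secreted peptide that restrains entry into the lineage, was at 1.48, 1.24 and 2.27 CPM in WT and 3.60, 3.78 and 3.14 CPM in agb1 (1.05, SE 0.24, edgeR adjusted p = 0.00653). The groups did not overlap for any of these genes. PDF1 (1.12) and MUTE (1.70) completed the 5, while ATML1 (0.20) and FAMA (0.03) were not called. MUTE was at a low level, 0.0953, 0.296 and 0.0858 CPM in WT and 0.490, 0.634 and 0.361 CPM in agb1. The count of higher markers was 3 without agb1 NAE replicate 1, agb1 NAE replicate 2 or WT NAE replicate 1. Under DMSO none of the 7 was called by edgeR (2 at an unadjusted p under 0.05), with a median of 0.11. Of all tested loci 19% were called there. At 1 h in NAE 1 was higher (4.08% of all tested loci). All 7 markers were called lower in WT seedlings given NAE than in those given DMSO (29.1% of all loci), with a median of -1.67, and 6 of 7 were called lower by NAE in agb1 (26% of all loci), with a median of -1.08. The summed level of the 7 markers was 148 to 201 CPM in WT and 254 to 377 CPM in agb1. The part of cell type composition in these values was not tested.

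Most genes called among the small heat shock proteins, which bind unfolding proteins, were lower in agb1 under NAE, and those called under DMSO were higher. Of 16 genes 9 were called lower and 1 higher under NAE, with a median log2 fold change of -0.59. That is 62.5% called, against 22.9% of all tested loci. Under DMSO 9 were higher and none lower, with a median of 1.25 and 7.84% of all tested loci called higher there. AT2G29500 shows the pattern in levels, with 24.1, 21.6 and 24.1 CPM in WT and 70.9, 85.8 and 79.3 CPM in agb1 under DMSO. Under NAE it was at 1232, 1304 and 1558 CPM in WT and 943, 857 and 988 CPM in agb1 (-0.55, SE 0.12, edgeR adjusted p = 0.00519). The order of the genotypes was thus opposite under the 2 treatments, with no overlap between groups in either. AT5G37670 was at 94.8, 88.5 and 103 CPM in WT and 55.7, 60.7 and 66.0 CPM in agb1 under NAE (-0.65, SE 0.13, edgeR adjusted p = 0.00358), and AT5G51440 was lower by 0.48. The median effect of NAE on the 16 genes was a log2 change of 5.19 in WT and 3.33 in agb1. The genotype by NAE interaction, which tests that difference, was called lower at 9 of the 16 (1.65% of all tested loci), with a median of -1.75. AT5G47600, the 1 member called higher (1.58), was at a mean of 0.321 CPM in WT and 1.01 CPM in agb1. That call was lost without any single agb1 NAE replicate, WT NAE replicate 1 or 2 or WT DMSO replicate 1, with the replicate block and with thinned counts. The count of lower members fell to 5 without agb1 NAE replicate 2, agb1 NAE replicate 3 or WT NAE replicate 3.

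Among 29 larger chaperone and heat shock factor genes 5 were lower and none higher, with a median of -0.20, which is 17.2% called where 13.7% of all tested loci were called lower. ROF2, a heat-induced peptidyl-prolyl isomerase, was at 1081, 1086 and 1049 CPM in WT and 599, 524 and 630.1 CPM in agb1 under NAE (-0.88, SE 0.15, edgeR adjusted p = 0.00119). Under DMSO it was higher in agb1 by 1.44, so its order was also opposite under the 2 treatments. MBF1C (-0.77) and the heat shock factor gene HSFA8 (-0.77) were the other named members, and MBF1C shares part of its locus with genes on the opposite strand, of which AT3G24495 was higher by 0.52. The interaction was called lower at 8 of the 29 (1.65% of all tested loci). The count under NAE fell to 3 without agb1 NAE replicate 2 and rose to 8 without agb1 DMSO replicate 3 and to 9 with only the 6 libraries compared. Of 16 genes of endoplasmic reticulum stress 1 was higher, NAC103 (1.08), and 1 lower, BZIP60 (-0.49), 12.5% against 22.9% of all tested loci. That lower count was 0 without agb1 NAE replicate 1 or 2, 2 without WT NAE replicate 1 or WT DMSO replicate 3, 5 without agb1 DMSO replicate 2, 4 with DESeq2 and 7 with only the 6 libraries.

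**Figure D3:**
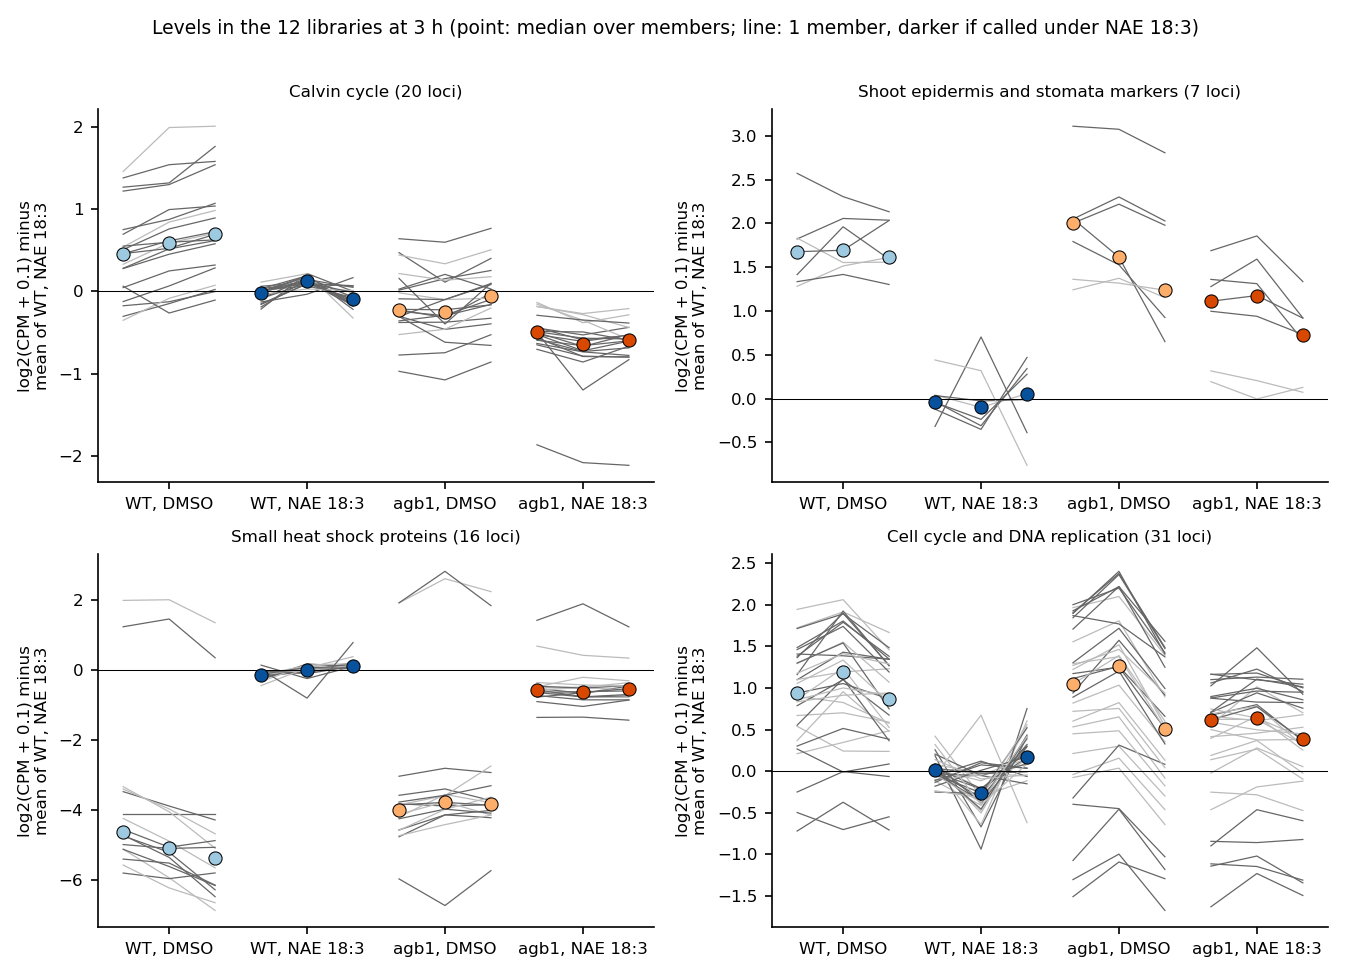
Level of each member of 4 gene lists (Calvin cycle, shoot epidermis and stomata, small heat shock proteins, cell cycle) in the 12 libraries of 3 h, as log2(CPM + 0.1) minus the mean of the WT NAE libraries, with libraries on the horizontal axis. Calvin cycle medians are lower in agb1 than in WT under both treatments (list medians -0.74 under DMSO and -0.56 under NAE), epidermal lines sit higher in agb1 than in WT under NAE (list median 1.05), and of the 16 small heat shock members 9 were called higher in agb1 under DMSO and 9 lower under NAE.

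The windows upstream of 6 of these genes were read to show what members that moved together carry near their starts. Each window holds the 250 bases before the annotated start of the gene, printed 5′ to 3′ on the strand of the gene, from RefSeq TAIR10.1. Capitals mark exact matches on either strand to 4 motifs, the heat shock element GAANNTTC, the G-box CACGTG, the I-box GATAAG and the L1 box TAAATGCA or TAAATGTA. CP12-2, EMB3119 and AT5G51440 are not shown because another gene is annotated in their windows.
HCEF1 at chr3:20016587-20016836 on the plus strand: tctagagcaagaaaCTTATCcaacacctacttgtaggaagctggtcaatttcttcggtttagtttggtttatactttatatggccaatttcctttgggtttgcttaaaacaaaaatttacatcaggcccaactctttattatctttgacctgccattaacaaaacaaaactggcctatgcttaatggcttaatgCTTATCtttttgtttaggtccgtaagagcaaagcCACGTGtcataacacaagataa
TMM at chr1:30129650-30129899 on the minus strand: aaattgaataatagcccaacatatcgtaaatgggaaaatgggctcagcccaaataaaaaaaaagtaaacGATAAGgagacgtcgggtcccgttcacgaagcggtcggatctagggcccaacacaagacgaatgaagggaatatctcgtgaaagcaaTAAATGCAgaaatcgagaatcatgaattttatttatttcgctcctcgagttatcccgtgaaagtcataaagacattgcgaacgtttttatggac
SPCH at chr5:21589256-21589505 on the minus strand: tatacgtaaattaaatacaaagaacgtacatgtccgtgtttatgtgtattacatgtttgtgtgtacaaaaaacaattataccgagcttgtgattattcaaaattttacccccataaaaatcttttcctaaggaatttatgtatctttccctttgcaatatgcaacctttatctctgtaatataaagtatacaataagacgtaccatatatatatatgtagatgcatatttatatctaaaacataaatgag
EPF2 at chr1:12472618-12472867 on the plus strand: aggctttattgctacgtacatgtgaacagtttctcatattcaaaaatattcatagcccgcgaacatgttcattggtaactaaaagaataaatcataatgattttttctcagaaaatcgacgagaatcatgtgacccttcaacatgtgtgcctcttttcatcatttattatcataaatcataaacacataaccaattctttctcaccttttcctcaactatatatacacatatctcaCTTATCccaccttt
AT5G37670 at chr5:14968508-14968757 on the plus strand: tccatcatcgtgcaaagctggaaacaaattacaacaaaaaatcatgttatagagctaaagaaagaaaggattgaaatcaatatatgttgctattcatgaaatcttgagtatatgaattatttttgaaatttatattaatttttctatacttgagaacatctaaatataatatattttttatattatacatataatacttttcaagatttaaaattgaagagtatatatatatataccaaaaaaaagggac
AT2G29500 at chr2:12634121-12634370 on the minus strand: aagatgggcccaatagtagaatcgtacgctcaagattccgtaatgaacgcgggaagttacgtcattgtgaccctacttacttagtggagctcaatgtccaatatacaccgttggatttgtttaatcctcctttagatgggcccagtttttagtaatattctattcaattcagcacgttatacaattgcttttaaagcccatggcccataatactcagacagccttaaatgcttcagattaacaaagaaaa
HCEF1 held 1 G-box and 2 I-boxes, TMM 1 I-box and 1 L1 box, and EPF2 1 I-box, while the other 3 windows held none of the 4 motifs. Over 27443 promoters of the same length, 9.55% held the heat shock element, 6.49% the G-box, 12.3% the I-box and 4.49% an L1 box. Of the 16 small heat shock protein genes 4 held the heat shock element. Of the 7 epidermal markers 2 held an L1 box and 3 an I-box, and of the 20 Calvin cycle genes 3 held a G-box and 4 an I-box. The G-box and the I-box are known from light-regulated promoters and the L1 box from genes of the outer cell layer. A match is a run of letters and not evidence of binding.

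The genotype by NAE interaction asked at which loci the difference between agb1 and WT changed with NAE at 3 h. It was called at 613 loci (2.97%), 341 lower (1.65%) and 272 higher (1.32%) in agb1 under NAE than the DMSO difference would give. It shares its libraries with the comparison under NAE, so the values are set side by side only. The count was 189 and 199 without agb1 NAE replicates 1 and 2, 396 and 335 without WT NAE replicates 1 and 2, 198 without WT DMSO replicate 2 and 1394 without agb1 DMSO replicate 2, and DESeq2 gave 1377.

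Genes for 3 danger peptides were lower in this test. PROPEP1, PROPEP2 and PROPEP3 encode precursors of Pep peptides, which are released on damage and sensed by PEPR receptors. PROPEP3 was at 13.9, 7.72 and 4.45 CPM in WT and 4.37, 8.15 and 3.69 CPM in agb1 under DMSO, where the groups overlapped. Under NAE it was at 57.5, 70.2 and 45.6 CPM in WT and 4.67, 5.73 and 8.03 CPM in agb1 (-3.23, SE 0.39, edgeR adjusted p = 0.000123). The level in agb1 thus stayed in its DMSO range while that in WT was higher, and the interaction was -2.55 (SE 0.53, edgeR adjusted p = 0.0262). That interaction call was lost without any one of agb1 NAE replicates 1 and 2, WT DMSO replicate 2 and WT NAE replicate 2, and without the filter on low counts. PROPEP2 was at 6.57, 7.82 and 7.08 CPM in WT and 0.519, 0.818 and 1.03 CPM in agb1 under NAE (-3.17, interaction -2.66), and its interaction call was lost without the same 4 libraries. PROPEP1 was at 11.6, 18.4 and 10.4 CPM in WT and 3.49, 3.12 and 3.94 CPM in agb1 (-1.93, interaction -2.17). The receptor genes PEPR1 (-0.47) and PEPR2 (-0.74) were lower in agb1 under NAE.

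Of 29 immune receptor and defence genes 12 were lower under NAE and none higher, with a median of -0.40. That is 41.4%, against 13.7% of all tested loci called lower, and 5 were lower in the interaction (1.65% of all). WRKY53, a transcription factor of defence and leaf ageing, was at 12.9, 13.9 and 11.3 CPM in WT and 3.46, 3.12 and 3.58 CPM in agb1 (-1.90, SE 0.17, edgeR adjusted p = 6.40e-06). WRKY53 overlaps AT4G23800 on the opposite strand, which was not called (-0.48). WRKY33 (-0.96), ERF5 (-0.99), ERF6 (-1.06), CERK1 (-0.63) and PAD4 (-0.65) were lower as well, whereas the flagellin receptor gene FLS2 (0.30) and the salicylate marker PR5 (0.18) were not called.

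Among loci called in the interaction with a mean of at least 5 CPM over the 12 libraries, the largest values were of both signs. AT5G04380, a methyltransferase gene, had the lowest value of these (-3.65, SE 0.40, edgeR adjusted p = 0.000839). It was at 2.62, 1.60 and 3.25 CPM in WT and 11.3, 6.84 and 12.6 CPM in agb1 under DMSO, and at 18.0, 11.7 and 13.5 CPM in WT and 3.58, 5.17 and 5.36 CPM in agb1 under NAE. The order of the genotypes was opposite under the 2 treatments, with no overlap in either. The small heat shock genes AT1G07400 (-2.74) and HSP17.6A (-2.54) and the DUF1442 gene AT5G62280 (-2.34) were among the next lowest. The highest value of these, 4.57 at the pectin lyase-like gene AT1G60590, rests on WT NAE levels of 0.333, 0 and 0.0429 CPM and was not called without agb1 DMSO replicate 3, any of the 3 agb1 NAE replicates, WT DMSO replicate 2, WT NAE replicate 2 or WT NAE replicate 3. AT2G10940, a lipid-transfer protein gene, was at 1318, 1781 and 1434 CPM in WT and 507, 609 and 372 CPM in agb1 under DMSO. Under NAE it was at 59.0, 70.3 and 46.0 CPM in WT and 141, 199 and 87.8 CPM in agb1, and the interaction was 2.89 (SE 0.38, edgeR adjusted p = 0.00307). AT3G28220 (2.91), the pectate lyase gene AT1G67750 (2.62), CYP710A2 of sterol synthesis (2.47) and the expansin gene EXPA5 (2.34) were also higher in this test.

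Genes for oxylipins were lower in agb1. Of 17 genes of NAE hydrolysis and oxidation 7 were lower and 1 was higher, with a median of -0.15. That is 47.1% called, against 22.9% of all tested loci. Under DMSO 6 of the 17 were lower (11.1% of all tested loci) and 1 was higher (7.84%), with a median of -0.22. The genotype by NAE interaction was called by edgeR at none of the 17 (3 at an unadjusted p under 0.05). Of all tested loci 2.97% were called in the interaction. LOX2, the plastid lipoxygenase of jasmonate synthesis, was at 1075, 1095 and 627 CPM in WT and 185, 147 and 131 CPM in agb1 (-2.59, SE 0.28, edgeR adjusted p = 4.23e-05). LOX4 (-1.29), LOX3 (-0.81), LOX1 (-0.72), LOX6 (-0.31), the alpha-dioxygenase gene DOX1 (-1.27) and the phospholipase gene PLDGAMMA1 (-0.60) were the rest of the 7, and PLDGAMMA2 was higher (0.43), a count of higher members that was 0 without agb1 NAE replicate 2. LOX1 overlaps AT1G55030 on the opposite strand. FAAH, whose product hydrolyses NAEs, was at a mean of 55.8 CPM in WT and 53.2 CPM in agb1 and was not called (-0.07, SE 0.09).

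Of 23 jasmonate genes 11 were lower and none higher, with a median of -0.44. That is 47.8%, against 13.7% of all tested loci called lower. The synthesis genes led, with AOC2 at 3400.0, 3284 and 3381 CPM in WT and 1364, 1237 and 1357 CPM in agb1 (-1.35, SE 0.13, edgeR adjusted p = 1.22e-05). Allene oxide cyclase AOC1 (-1.42) is a close copy of AOC2, and AOS, allene oxide synthase, was at 967, 923 and 808 CPM in WT and 446, 424 and 418 CPM in agb1 (-1.07). OPR3 (-0.89), OPCL1 (-0.40) and the repressor genes JAZ1, JAZ2, JAZ5, JAZ9 and JAZ10 (-0.72 to -0.28) were lower, and the receptor gene COI1 was not called (0.05). The count fell to 6 without any single agb1 NAE replicate or WT NAE replicate 1, and to 7 without WT NAE replicate 2. Under DMSO 14 of the 23 were lower (11.1% of all tested loci), with a median of -0.62.

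Genes of the cell cycle and DNA replication were called in both directions. Of 31 cell cycle genes 12 were higher and 5 lower, with a median of 0.51. That is 54.8% called, against 22.9% of all tested loci. MCM2, a subunit of the replicative helicase, was at 9.05, 7.58 and 9.87 CPM in WT and 18.9, 19.4 and 19.0 CPM in agb1 (1.11, SE 0.18, edgeR adjusted p = 0.000759). MCM3, MCM5, MCM6 and MCM7 (0.92 to 1.10), the sliding clamp genes PCNA1 (1.12) and PCNA2 (0.81), CDT1A (0.91), E2FA (0.94), CYCB1;2 (0.61), CYCB1;4 (0.73) and KN (0.59) were the other higher members. CDKB2;2, a mitotic cyclin-dependent kinase, was at 29.9, 33.8 and 29.7 CPM in WT and 14.0, 15.3 and 12.2 CPM in agb1 (-1.17, SE 0.13, edgeR adjusted p = 4.23e-05). CDKB1;2 (-1.49), the Aurora kinase gene AUR1 (-0.87), the kinesin gene HIK (-0.64) and TSO2, a ribonucleotide reductase subunit (-1.19), were lower with it. The count of higher members fell to 7 without agb1 NAE replicate 1 or WT NAE replicate 1 and to 5 without agb1 NAE replicate 2 or WT NAE replicate 2. Under DMSO 1 of the 31 was higher (7.84% of all tested loci) and 5 were lower (11.1%), with a median of -0.10. At 1 h in NAE 3 were lower (4.89% of all tested loci). In WT given NAE, 23 of the 31 were called lower than under DMSO (29.1% of all loci) and 2 higher (median -0.95). In agb1 given NAE, 11 were called lower (26% of all loci) and none higher (median -0.44). The interaction was called higher at 1 of the 31 (1.32% of all tested loci). Both CDKB genes overlap loci on the opposite strand.

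Phosphate starvation genes were lower in agb1 in each of the 3 comparisons made here. Of 18 genes 8 were lower and none higher at 3 h in NAE, with a median of -0.59. That is 44.4%, against 13.7% of all tested loci called lower. Under DMSO at 3 h 11 were lower (11.1% of all tested loci) and 2 higher (7.84%). At 1 h in NAE 14 were lower (4.89% of all tested loci) and 1 higher (4.08%), with a median of -0.83. PS2, a pyrophosphatase, was at 69.5, 69.7 and 66.2 CPM in WT and 10.4, 10.2 and 11.1 CPM in agb1 (-2.70, SE 0.19, edgeR adjusted p = 1.04e-06). The purple acid phosphatase gene PAP17 (-2.18), the phosphate sensor gene SPX1 (-1.58), SPX2 (-0.80), SPX3 (-2.57), the transporter gene PHT1;4 (-1.24), SQD2 (-0.76) and MGD1 (-0.49) were lower too. PAP17 overlaps AT3G17800 on the opposite strand, which was not called. The regulator gene PHR1 was not called at 3 h in NAE (0.03). All 8 genes were also called lower at 1 h in NAE, where the WT libraries are other ones.

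Of 25 abscisic acid genes 9 were lower and 1 higher, with a median of -0.39. CYP707A1, an abscisic acid hydroxylase, was at 41.8, 38.0 and 33.3 CPM in WT and 19.1, 18.5 and 21.0 CPM in agb1 (-0.95, SE 0.12, edgeR adjusted p = 0.000152). The phosphatase gene ABI2 (-0.94) and the BURP domain gene RD22 (-0.63) followed by p, and RAB18 (AT5G66400) was lower by 3.94 from a WT mean of 2.70 CPM. The lower count fell to 5 without WT NAE replicate 1. The higher count was 2 without WT NAE replicate 3 or WT DMSO replicate 1 or 2, 3 without agb1 DMSO replicate 1 or 3 or WT DMSO replicate 3, 4 without agb1 DMSO replicate 2 and with DESeq2, and 5 with upper-quartile scaling and with only the 6 libraries. Of 17 auxin genes 6 were lower and none higher, with a median of -0.53, led by the conjugating enzyme gene GH3.3 at 315, 235 and 270.1 CPM in WT and 165, 142 and 116 CPM in agb1 (-0.96, SE 0.19, edgeR adjusted p = 0.00283). PIN3 (-0.61) and IAA2 (-0.54) were the next, and the count fell to 3 without agb1 NAE replicate 2, WT NAE replicate 1 or WT NAE replicate 2 and to 2 without agb1 NAE replicate 3. Of 16 ethylene genes 2 were higher, ETR2 (0.68) and ACO1 (0.68), and 2 lower, ACS6 (-0.70) and ERF1 (-1.03). Under DMSO 8 of the 16 were higher (7.84% of all tested loci) and 2 lower (11.1%). The ethylene count of lower members was 1 without agb1 NAE replicate 1 or 2 or WT NAE replicate 1 and 4 without agb1 DMSO replicate 3 or WT DMSO replicate 3, and that of higher members was 1 without agb1 NAE replicate 2. Of 13 brassinosteroid genes 4 were lower, among them BES1 (-0.49), BEE2 (-0.77) and BKI1 (-0.51), and none of the 4 kept its call without agb1 NAE replicate 2, agb1 NAE replicate 3 or WT NAE replicate 1. The brassinosteroid count was 2 without agb1 NAE replicate 1, WT NAE replicate 2 or 3 or any single WT DMSO replicate. The shares called were 40% of the abscisic acid and 25% of the ethylene genes, against 22.9% of all tested loci. Those of auxin and brassinosteroid, 35.3% and 30.8%, were all lower, against 13.7% of all tested loci.

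Cell wall genes were higher where called. Of 25 expansin and XTH genes 5 were higher and none lower, with a median of -0.01. That is 20%, against 9.24% of all tested loci called higher. EXPA3 was at 6.14, 5.15 and 8.54 CPM in WT and 14.7, 17.3 and 11.4 CPM in agb1 (1.12, SE 0.18, edgeR adjusted p = 0.000681), and XTH9 (1.33), EXPA5 (1.14), XTH31 (0.74) and EXPA6 (0.54) made up the rest. Sugar starvation genes were lower where called, 8 of 23 (34.8%, against 13.7% of all tested loci), with a median of -0.28. The amylase genes BAM3 (-1.14) and BAM5 (-1.83), the kinase gene KIN10 (-0.37), SEN1 (-1.51), ASN1 (-1.37), TPS8 (-0.84), BZIP1 (-0.63) and BZIP11 (-0.36) were the 8. The sugar count fell to 3 without agb1 NAE replicate 2 and to 5 without agb1 NAE replicate 1, agb1 NAE replicate 3 or WT NAE replicate 2.

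Smaller counts were found in the remaining lists, and they are read against the 13.7% of all tested loci that were called lower and the 9.24% called higher. Of 20 oxidative stress genes 5 were lower and 1, FSD1, higher, with AOX1D, an alternative oxidase, at 188, 171 and 143 CPM in WT and 78.7, 74.8 and 95.2 CPM in agb1 (-1.01, edgeR adjusted p = 0.00797). The oxidative stress count of lower members fell to 3 without agb1 NAE replicate 1 or WT NAE replicate 1 and to 2 without agb1 NAE replicate 2 or 3, WT DMSO replicate 2 or WT NAE replicate 2. Of 24 detoxification genes 3 were lower, GSTU10 (-1.17), GSTU5 (-0.54) and GSTU4 (-0.97), a share of 12.5%, and GSTU10 overlaps AT1G74580 on the opposite strand, which was higher by 1.21. The GSTU4 call was lost in 14 of the 21 alternatives, among them each omission of a single NAE library, and the count of lower members was 5 without agb1 DMSO replicate 2 and 12 with only the 6 libraries. Of 21 glucosinolate genes 5 were lower and 1 higher, with UGT74B1 (-1.02), MYB51 (-1.12) and MYB34 (-0.73) among them. That lower count fell to 3 without agb1 NAE replicate 1 or 2 or WT NAE replicate 1 or 2 and was 8 without WT NAE replicate 3. Of 19 flavonoid genes 3 were lower and 1 higher, including PAL1 (-0.79) and UGT78D1 (1.06), and 1 was lower without agb1 NAE replicate 2 or WT NAE replicate 2. Of 11 genes of seed oil use 3 were lower, isocitrate lyase gene ICL (-0.77) among them, and 1 was higher, MFP2 (0.38). The MFP2 call was lost without any single agb1 NAE replicate or WT NAE replicate 3, and the lower count fell to 1 without agb1 NAE replicate 1. Of 20 clock genes 2 were lower, PRR3 (-0.37) and ELF4 (-0.42), and the count was 1 without agb1 NAE replicate 2 and 0 without WT NAE replicate 2. Of 9 nitrogen genes NRT1.1 was higher (0.83) and AMT1;2 lower (-0.96), and the higher count was 3 without agb1 DMSO replicate 1 or 2 and the lower count 3 without WT NAE replicate 3.

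Marker lists of other tissues and of the organelles moved as follows. Of 14 root markers 2 were higher, TIP2;3 (1.53) and GL2 (0.83), with a median of -0.50 (1 higher without agb1 NAE replicate 1 or 2 or WT NAE replicate 1 or 2), and their summed level was 214 to 228 CPM in WT and 175 to 204 CPM in agb1. The 3 tested seed storage markers were near 0 in both groups, with sums of 0.515 to 0.762 CPM in WT and 0.548 to 1.29 CPM in agb1, and edgeR called none (1 at an unadjusted p under 0.05). Of 85 plastid-encoded loci 10 were higher and none lower, with a median of 0.54, and of 25 mitochondrion-encoded loci 1 was higher, with a median of 0.65. These shares of 11.8% and 4% compare with 9.24% of all tested loci called higher, and the mitochondrial call was lost without any single NAE library. The plastid count was 2 without agb1 NAE replicate 1 or 2, 5 without agb1 NAE replicate 3, 6 without WT NAE replicate 1 and 3 without WT NAE replicate 2 or 3. Their summed share of the counts was 0.0380% to 0.0661% in WT and 0.0692% to 0.101% in agb1. The libraries were poly(A)-selected, and the part of that selection in these loci was not tested.

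**Figure D4:**
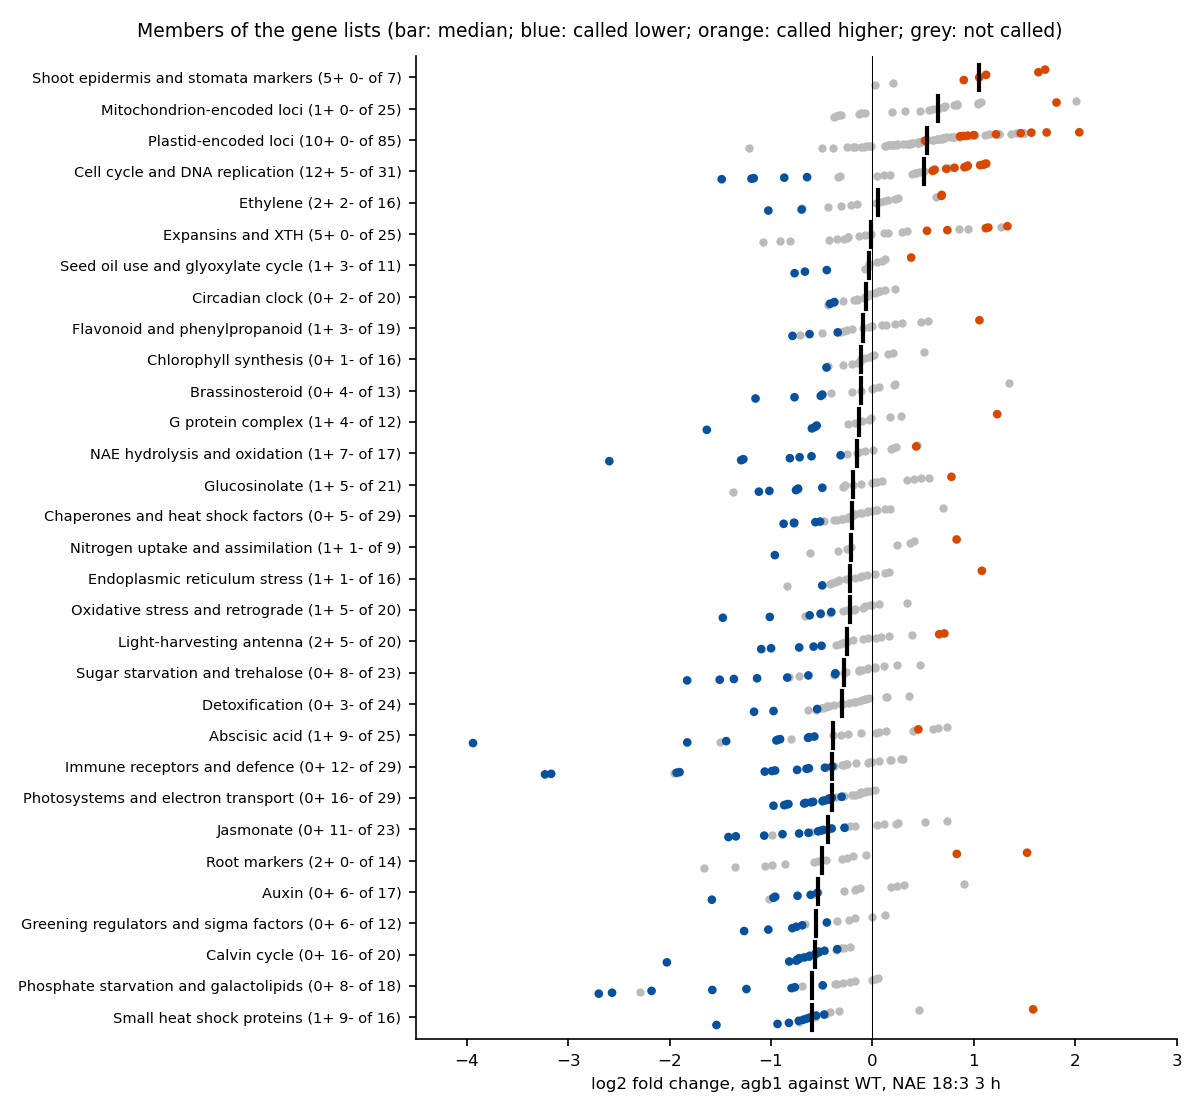
Log2 fold change of agb1 over WT under NAE 18:3 at 3 h (horizontal axis) for the tested members of the gene lists (rows). The seed storage list is not shown. Members called lower are blue, those called higher orange and those not called grey, and a bar marks the list median. FSD1 lies beyond the axis. The Calvin cycle members all lie below 0 (median -0.56) and the shoot epidermis members all above 0 (median 1.05).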

How the data were processed

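Whole-seedling RNA was sequenced from poly(A)-selected stranded libraries with paired reads of 75 bases, per the labels' protocols. The authors deposited a table of raw read counts per locus for each time point, and the submitters' processing notes name STAR, DESeq2 and the TAIR10 build without versions. The counting tool and its strand setting are not given in the sources used here, so reads from overlapping loci on opposite strands cannot be told apart. The authors' normalized tables were not used.

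Loci passing filterByExpr (minimum count 10, minimum total 15) were scaled by trimmed means (TMM) and tested in R 4.3.3 with edgeR 4.0.16 (robust quasi-likelihood F test, limma 3.58.1). All 12 libraries of a time point entered 1 fit without a block, and the contrast of the 2 genotypes under NAE was drawn from it. Libraries of 3 h held 19954891 to 51894994 counts. The interaction used the same fit, and the change of the difference between times used all 24 libraries. P-values were adjusted over all tested loci and called at 0.05. DESeq2 1.42.0, other scalings and filters, thinned counts, an exon-length offset, the replicate block and leaving out each library were tried as alternatives. So was leaving out organelle loci and ribosomal RNA.

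On simulated counts for the NAE comparison over 20672 loci, 31.3% of 67 loci changed 1.5-fold, 71.6% of 67 changed 2-fold and 92.4% of 66 changed 4-fold were recovered. Only these loci were set to differ, and 136 were called, against 4743 in the data. The rates therefore may not carry over to the real comparison. The members and gene lists were chosen with earlier results of these data known. Named genes were the 10 largest called differences in each direction with a mean of at least 5 CPM and no overlap between the 6 libraries, the 3 smallest p-values of each list with 3 or more called members, the G protein genes, and the 5 largest interactions in each direction. Other list members are named to account for the counts and were chosen after their values were seen.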

Additional observations from a re-analysis of the deposited data

Results flagged for a closer look

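The difference between agb1 and WT at 3 h was not the same under NAE as under DMSO for these named genes, by the genotype by NAE interaction in edgeR (adjusted p under 0.05). Values are the log2 fold change under NAE minus that under DMSO. It was below 0 for AT5G04380 (-3.65), AT1G07400 (-2.74), PROPEP2 (-2.66), PROPEP3 (-2.55), HSP17.6A (-2.54), AT5G62280 (-2.34), AT1G33500 (-2.31), AT2G29500 (-2.31), ROF2 (-2.31), PROPEP1 (-2.17), AT5G37670 (-1.95), MBF1C (-1.90), AT3G28270 (-1.79), AT5G51440 (-1.70), ETR2 (-0.87), BES1 (-0.86), GPA1 (-0.85) and AGB1 (-0.75). It was above 0 for GLK1 (1.05), NDL3 (1.17), DR4 (1.26), TMM (1.37), BAM5 (1.40), UGT78D1 (1.48), AT1G06360 (2.16), EXPA5 (2.34), CYP710A2 (2.47), AT1G67750 (2.62), AT2G10940 (2.89), AT3G28220 (2.91) and AT1G60590 (4.57). The calls of AGB1, AT1G06360, AT1G60590, AT3G28270, BAM5, BES1, CYP710A2, ETR2, GPA1, PROPEP2, PROPEP3 and UGT78D1 were lost in at least 1 of the alternative analyses.

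The difference under NAE was not the same at 3 h as at 1 h for all 20 loci named for size, by the test of that change over 24 libraries in edgeR. Values are the log2 fold change at 3 h minus that at 1 h. It was below 0 for AT5G23700 (-7.30), SDH1-2 (-5.83), AT2G34580 (-5.78), SHOC1 (-5.40), AT1G33500 (-5.11), AT1G69710 (-4.98), AT4G32510 (-4.13), AT3G57440 (-3.82), AT3G28270 (-3.54) and AT2G05510 (-2.83). It was above 0 for AT3G02620 (1.09), AT5G23840 (1.23), DR4 (1.85), AT4G38380 (2.29), AT5G14530 (2.38), AT1G06360 (2.42), DWA2 (2.43), ZIP2 (2.81), MRN1 (2.83) and FSD1 (7.70). The WT libraries of the 2 times differed under DMSO as well, and the part of this in these values was not tested.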

How the results depend on the processing

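The 103 named genes called under NAE kept their sign in every alternative. The median log2 fold changes of 5 gene lists that lay near 0 did not. They ranged from -0.02 to 0.23 for expansins and XTH, -0.12 to 0.01 for the clock and -0.15 to 0.02 for flavonoids. For seed oil use the range was -0.09 to 0.04, and for seed storage -0.65 to 0.33. Of 103 named genes called under NAE, 87 kept their call in all 21 alternatives. The genes were named from the same libraries, largely by their calls, so the kept signs and calls are not separate support. The count of 4743 lay between 2812 and 5280 when single libraries were left out (higher calls 1038 to 2430, lower calls 1751 to 2856). It was 5560 with DESeq2, 5937 with only the 6 libraries compared, and 1286 (419 higher, 867 lower) when a 2-fold difference was also required. Without organelle loci and ribosomal RNA it was 4745 (1919 higher, 2826 lower). The interaction count lay between 189 and 1394 (higher 90 to 661, lower 86 to 733) without single libraries and was 1377 (680 higher, 697 lower) with DESeq2. The DMSO count lay between 2503 and 4374 (higher 709 to 1878) and was 2466 (846 higher) with only 6 libraries. The 1 h count lay between 1071 and 2039 (higher 492 to 936, lower 579 to 1103). The cause of these movements was not tested. Upper-quartile scaling and the loci with stable WT levels were added after seeing the data. The shallowest library of 3 h held 19954891 counts, and loci with a mean under 1 CPM were called least often.

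Deviations of same-numbered agb1 and WT libraries correlated at 0.043, -0.106 and -0.062, and those of differently numbered ones at -0.070 to 0.133. Whether the replicate numbers pair the samples cannot be told from these values. With the replicate block 4463 loci were called under NAE (1764 higher, 2699 lower), 564 in the interaction, 3692 under DMSO and 1743 at 1 h.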

Other observations

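The share of loci called at least 2-fold lower in agb1 varied along the chromosomes. Among windows of 2 Mb with at least 100 tested loci, the highest share was 11.3% (18 of 160 loci) at 12 to 14 Mb of chromosome 1, against 4.19% over all loci. The next were 10.1% (32 of 318) at 16 to 18 Mb of chromosome 3, 9.09% (34 of 374) at 24 to 26 Mb of chromosome 1 and 8.60% (35 of 407) at 8 to 10 Mb of chromosome 4. No test was made of these shares.

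By annotated kind, 4679 of 20289 protein-coding loci were called, as were 24 of 132 long noncoding RNA loci and 24 of 104 other noncoding RNA loci. The counts were 1 of 17 for miRNA loci and 2 of 14 for snoRNA loci. Over all tested loci 4743 of 20672 were called (22.9%), and no kind was tested against this share.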
